A study of Ovis aries with 42 samples.

Results

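The genes described here are 35 genes of the interferon response and of cytoplasmic RNA sensing, listed by name and looked up in the gene tables of sheep liver and sheep gallbladder. Of the 35, 34 had a row in the liver table, where BST2 was absent, and 32 had a row in the gallbladder table, where BST2, IFIT1 and SAMD9 were absent. Every gene with a row passed the filter on low counts, so 34 of the 16508 liver genes tested and 32 of the 18717 gallbladder genes tested are members. The libraries came from CF sheep, which the series title gives as CFTR-/- (CFTR is the anion channel gene of epithelial cells that is mutated in cystic fibrosis), and from wild-type (WT) sheep. CF livers were taken at d50, d65, d80, d100 and d120 (days of gestation) and at birth, and WT livers at the same 5 fetal stages and at term. CF gallbladders were taken at d80, d100 and d120, and WT gallbladders at d100, d120 and birth. Each group held 2 libraries of total RNA from pieces of frozen tissue, so every cell type of the organ is included. How CFTR was disrupted is not given in the sources used here, and the labels name no agent.

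Interferons are secreted when a cell detects viral or misplaced nucleic acid. The sensors RIG-I (encoded by DDX58) and MDA5 (IFIH1) bind RNA in the cytoplasm and signal for interferon production, and LGP2 (DHX58) tunes them. Secreted interferon binds receptors that activate transcription factors, STAT2 and IRF9 among them, which switch on antiviral genes, the sensors included.

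Estimated counts summed to 29705597 to 56808639 per liver library and 32374693 to 54443213 per gallbladder library, and levels are given as CPM, counts scaled to a common library total after TMM scaling, a correction for library composition. CFTR itself ran from 0.687 to 42.2 CPM in CF livers and from 0.846 to 2.81 CPM in WT livers, and gene-level counts do not resolve a lesion, so they do not check the genotype. Donor number SF177-1 labels a WT d65 liver and also CF d100 libraries, and the liver fetal mean, the liver d100 and the liver age slope results are also given without those libraries. The WT d100 livers and the WT d100 gallbladders all carry donor numbers that begin with SF152, and those of the 2 gallbladders, SF152-1A and SF152-1B, differ only in a letter. Whether these 2 came from 1 animal cannot be told from the labels, and their rank correlation over all genes, 0.993, was the highest of any pair of the same group. Many other pairs also share the start of their number. The labels give some donor numbers to both tissues, among them SF144-1 and SF177-1 at CF d100, SF1422 at CF d120 and SF1718-1 at WT d120. Donor number WT2004 is given to a WT term liver and to a WT birth gallbladder, so term and birth may not name different times. Their partners carry L1902 in liver and L1902-2 in gallbladder. Results of liver and gallbladder therefore cannot be taken as independent. The WT term livers, labelled female and male, carry library names from another number range than the other livers, which cannot be told apart from genotype and stage. In gallbladder, CF d80 replicate 1 and WT d120 replicate 1 stood apart from their partners, with 345624 and 324695 CPM in cytosolic ribosomal protein genes. Hepatocyte markers took 2383 and 2937 CPM of the CF d100 gallbladders, against 225742 and 226191 CPM of the WT d100 gallbladders. In livers the same markers took 32572 to 295592 CPM in CF and 174643 to 271886 CPM in WT, so the WT d100 gallbladders had hepatocyte markers at the level of liver, while cholangiocyte markers took 1420.3 to 1632.7 CPM of the CF d100 and 602 to 605 CPM of the WT d100 gallbladders. In bulk tissue, fewer cells of a type and less RNA per cell cannot be told apart, and p-values measure the spread between these libraries.

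Across the 24 livers, the members' mean level, centred for each gene on its own mean, was highest in the WT term pair (1.498 and 1.273 on the log2 scale). The next were the WT d100 pair (0.95 and 0.62) and the CF birth pair (0.65 and 0.65). The lowest were the CF d65 pair (-1.07 and -0.81) and CF d80 replicate 2 (-0.90). Over the livers, RNF213 followed the mean of the other members most closely (r = 0.96), then DTX3L (r = 0.94) and PARP14 (r = 0.93), and IFI35 (r = 0.10) and STAT2 (r = 0.14) least. These r are descriptions over 24 libraries that share stages and depth. Over the 12 gallbladders the closest were OAS2 (r = 0.84) and CMPK2 (r = 0.84), and ISG20 (r = -0.16) and IFI6 (r = -0.03) were the least close.

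**Figure D1:**
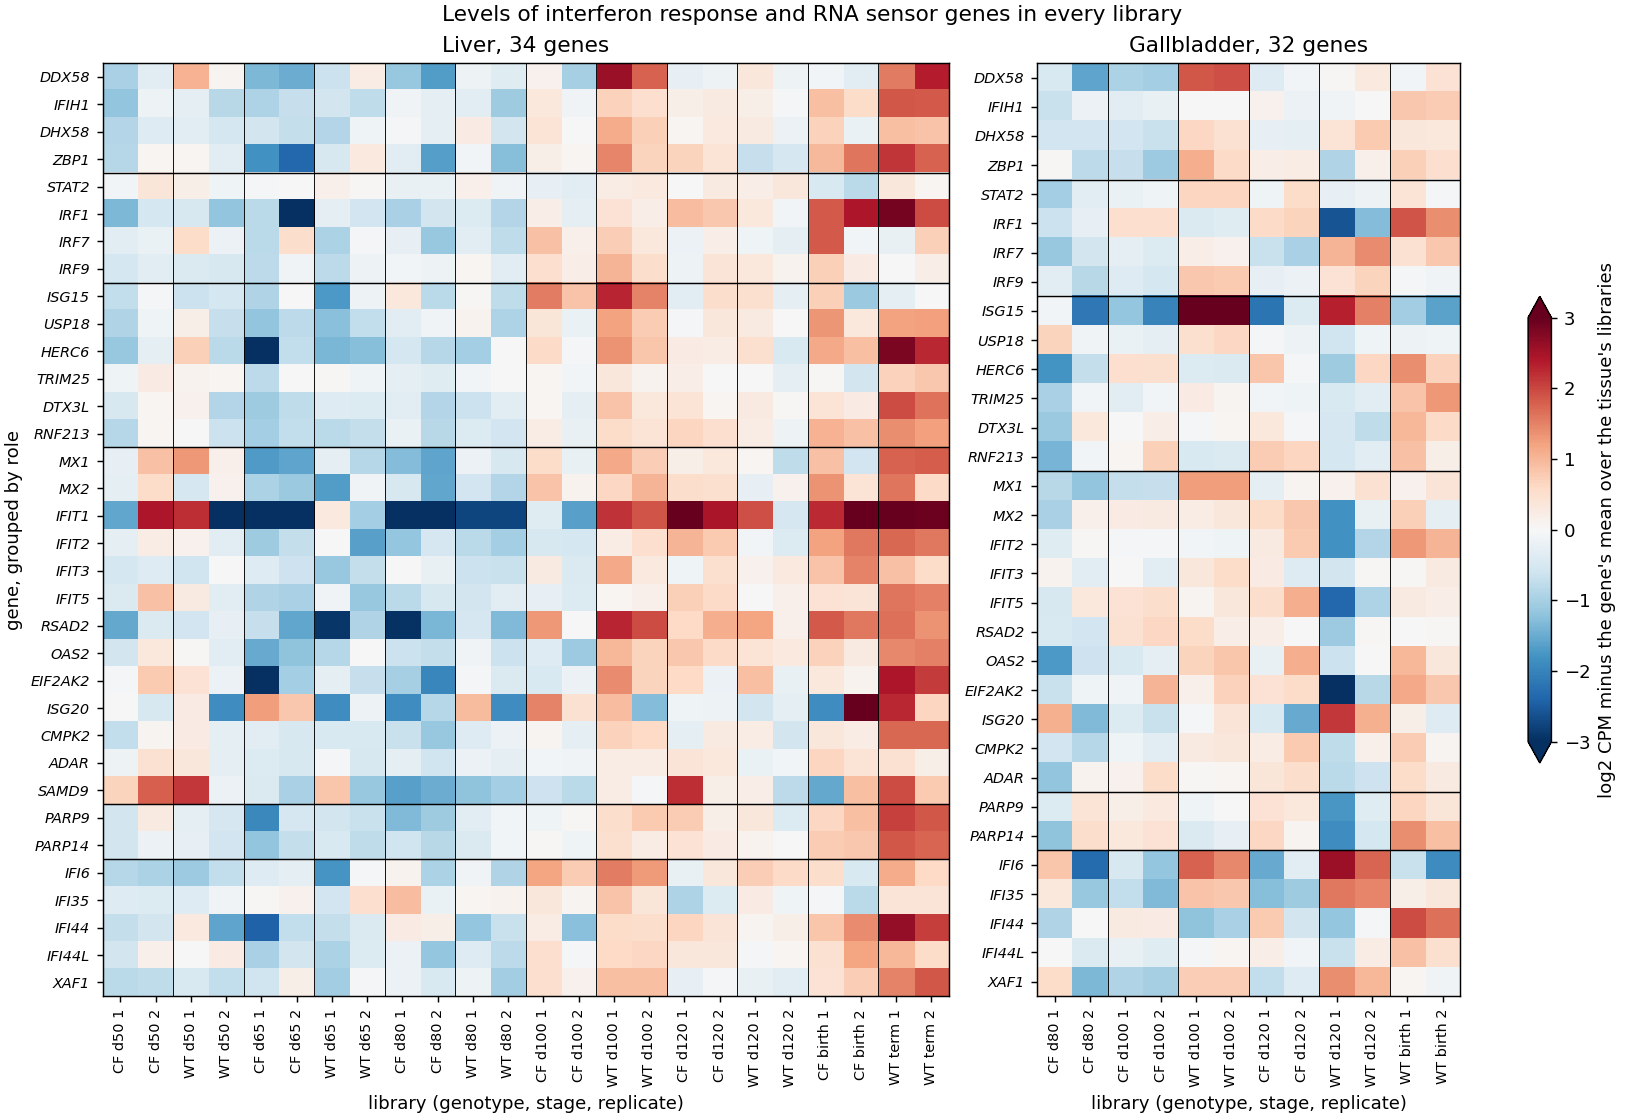
Heat map of the members (rows, grouped by role) in every library (columns, CF left of WT at each stage) of liver and gallbladder, as log2 CPM minus the gene's mean over the libraries of the tissue. By pair, the mean level in liver is highest at WT term, followed by WT d100 and CF birth, whose single libraries overlap. It is lowest in the CF d65 livers (-1.07 and -0.81).

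The fetal livers were set against each other by genotype, to see which interferon genes differ before birth. DDX58, the gene of the RNA sensor RIG-I, fell in CF livers to 0.404 of its WT level over the mean of the 5 fetal stages, and was the only member of 34 called at an adjusted p under 0.05, where 1.69% of all genes were called lower. No member was called higher, against 0.854% of all genes. At d100 alone, DDX58 was again the only call. At d50, d65, d80 and d120 no member was called by edgeR's test, while 1, 6, 3 and 2 members reached an unadjusted p under 0.05 at those stages. Of all 16508 genes, 372, 3100, 1511 and 2358 did so. DESeq2 called 2 members at d65 and 0 at each of the other 3 stages. For fits other than the main edgeR fit, the share of all genes called is not given here or below. Counts of members called in such fits show how calls moved and are not results about the members.

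RIG-I binds viral RNA by its phosphorylated end. At d50 it had 5.44 and 8.41 CPM in CF livers, against 21.9 and 11.3 CPM in WT livers. At d65 the values were 4.20 and 3.81 CPM in CF livers and 6.77 and 12.4 CPM in WT livers. At d80 they were 4.81 and 3.29 CPM in CF livers and 9.61 and 8.23 CPM in WT livers. Both CF values lay under both WT values at each of these stages. At d100 DDX58 had 11.7 and 5.31 CPM in CF livers, against 64.8 and 36.5 CPM in WT livers, the widest gap of the 5 fetal liver stages. At d120 it had 9.002 and 9.56 CPM in CF livers, against 13.5 and 9.67 CPM in WT livers, where the groups nearly met. DDX58 was the only member whose CF pair lay under the WT pair at all 5 fetal stages, as 0.460% of all genes did. The fetal mean difference was log2 -1.31 ± 0.19 SE, adjusted p = 0.000818. The call remained in all 26 alternatives (log2 -1.45 to -0.99), including each of the 20 fits without 1 library, the fit without both SF177-1 libraries and the mean without d100.

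**Figure D2:**
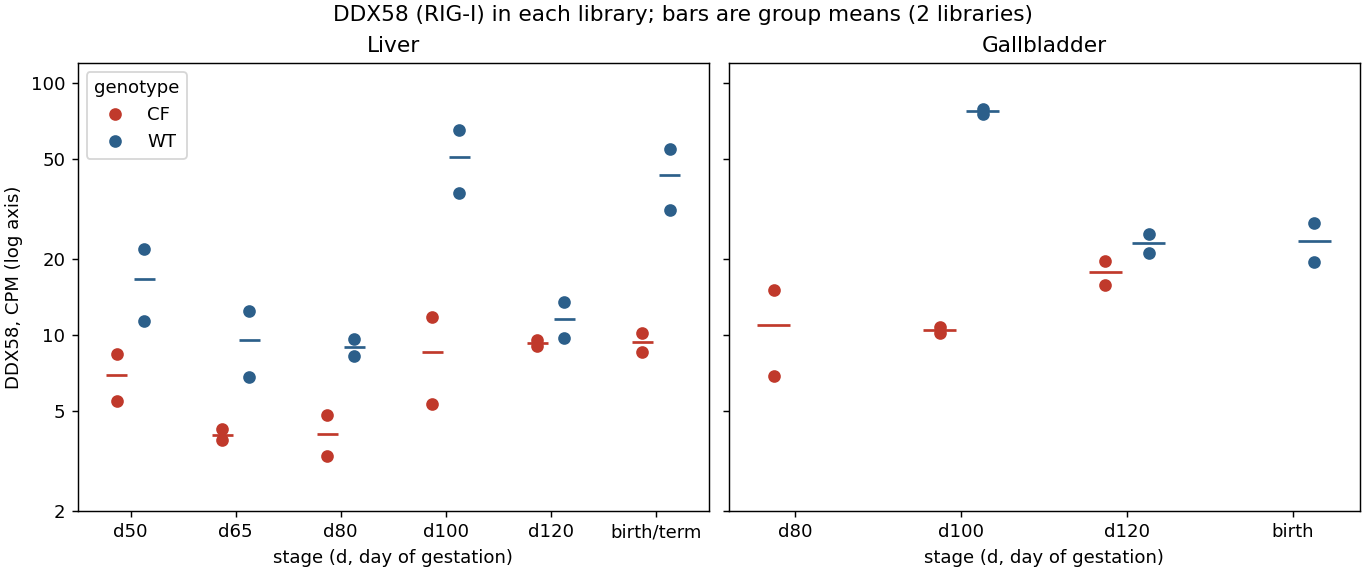
DDX58 level in CPM (log axis) by stage in liver (left) and gallbladder (right), with a point for each library, a bar for each group mean, and CF drawn left of WT. The WT d100 libraries of both tissues stand highest among the fetal ones, at 36.5 and 64.8 CPM in liver and 75.2 and 79.0 CPM in gallbladder.

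By single stage, the DDX58 difference was log2 -1.26 ± 0.42 SE, adjusted p = 1 at d50, where 0% of all genes were called. At d65 it was log2 -1.26 ± 0.43 SE, adjusted p = 0.126, with 1.65% of genes called. At d80 it was log2 -1.14 ± 0.43 SE, adjusted p = 0.423, with 0.0727% of genes called. None of these passed. At d100 it was log2 -2.57 ± 0.44 SE, adjusted p = 0.0387, among 0.0424% of genes called. That call was lost when any 1 of the 4 d100 libraries was left out, with 1 unit per donor-number stem, and without both SF177-1 libraries (adjusted p up to 0.805 over 9 alternatives). At d120 the difference was log2 -0.32 ± 0.42 SE, adjusted p = 0.749 and did not pass, with 0.0242% of genes called.

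The other sensors did not pass in the fetal mean. IFIH1, the sensor of long double-stranded RNA, differed by log2 -0.02 ± 0.14 SE and DHX58 by log2 -0.20 ± 0.15 SE. ZBP1, which detects nucleic acid in the left-handed Z form, had 0.348 and 0.229 CPM in CF d65 livers, against 0.942 and 1.65 CPM in WT d65 livers. Both CF values lay under both WT values at d65, as in 4579 of all 16508 genes. The difference did not pass (log2 -2.16 ± 0.60 SE, adjusted p = 0.0679). The member with the smallest p among those with a positive fetal mean was ISG20, an exonuclease of single-stranded RNA, at log2 0.36 ± 0.98 SE, adjusted p = 0.948. It ran from 0 to 18 counts over the 20 fetal livers. Over the 34 members the median fetal mean difference was -0.14 log2, against -0.05 for all genes, and 29 of 34 were negative, against 57.6% of all genes.

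IFIT1, which binds viral RNA caps, had 0 counts in all 4 CF livers of d65 and d80. The WT d65 livers had 34 and 10 counts of it and the WT d80 livers had 2 and 2. The IFIT, MX and OAS genes have close relatives, so counts of these genes depend on how shared reads were assigned. The d50 pairs were uneven. MX1, a GTPase that traps viral particles, had 20.9 and 46.2 CPM in the CF d50 pair and 61.9 and 27.7 CPM in the WT d50 pair. In CF d50, replicate 2 was higher in 31 of 34 members, and in WT d50 replicate 1 was higher in 27 of 34. In both pairs the library with more of the members had fewer erythroid reads, at 45521 CPM in CF d50 replicate 2 against 87524 CPM in its partner, and at 44762 CPM in WT d50 replicate 1 against 84842 CPM in its partner. The same libraries had fewer reads of cytosolic ribosomal protein genes, at 43817 CPM in CF d50 replicate 2 against 73182 CPM in its partner. In WT d50 replicate 1 these genes had 33498 CPM, against 74678 CPM in its partner. The part of erythroid content or of ribosomal protein genes in the members' differences was not tested.

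**Figure D3:**
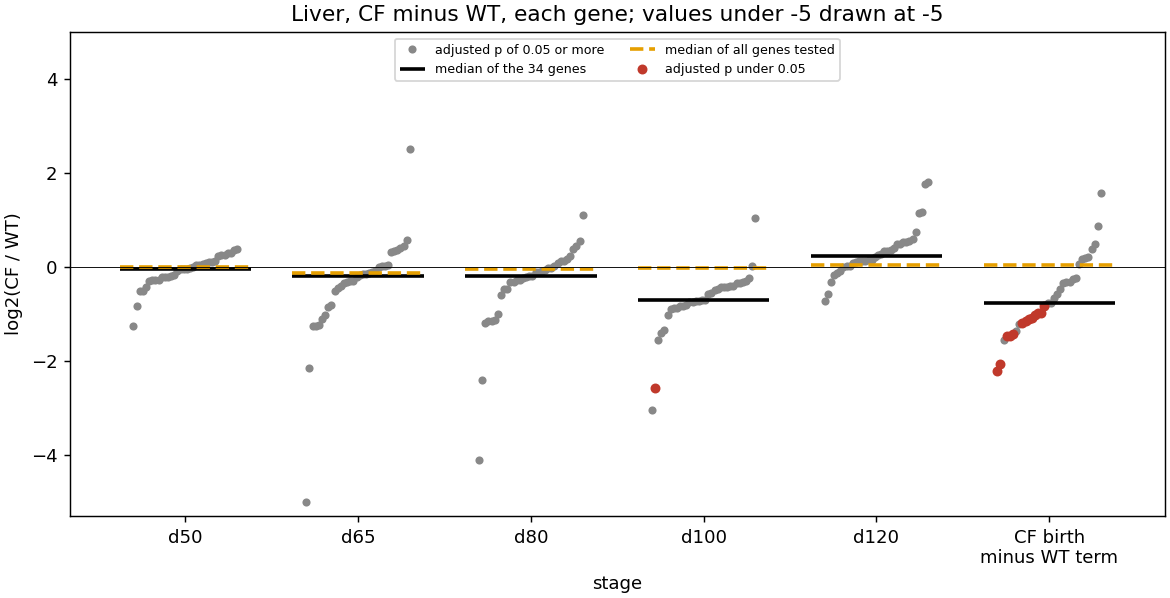
Log2 fold change of CF over WT livers for each of the 34 genes (points, ordered within a stage) at 5 fetal stages and for CF birth over WT term, with the median of the 34 genes (solid bar) and of all genes tested (dashed bar). At d100 the median of the 34 is -0.71 against -0.01 for all genes, and at birth against term 13 genes pass, all of them lower in CF; IFIT1 at d65, with 0 counts in CF, is drawn at the lower edge.

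The d100 livers of each genotype were then set against the mean of its d80 and d120 livers, a comparison chosen after the data had been seen. In CF livers no member was called, with 0.00606% of all genes called. The CF differences were positive in 24 of 34 members, against 51.8% of all genes, with a median of 0.28 log2 against 0.02. In WT livers DDX58 rose. All 34 members had a positive difference between WT d100 and the mean of WT d80 and WT d120, against 48.6% of all genes. Their median was 0.90 log2, against -0.00390 over all genes. DDX58 was the only member that passed (log2 2.32 ± 0.34 SE, adjusted p = 0.0165), in a comparison where 0.0303% of all genes were called higher and 0.00606% lower. The call was lost in 6 of 10 alternatives: with 1 unit per donor-number stem, and without either WT d120 library, either WT d80 library or WT d100 replicate 1 (adjusted p up to 1). By unadjusted p under 0.05, 5 members passed in CF and 24 in WT, against 889 and 569 of all 16508 genes. DESeq2 called 0 members in CF and 3 in WT. Whether the WT and CF steps differed was not tested.

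Several members reached their highest fetal level in the 2 WT d100 livers. For 12 of the 34, both WT d100 libraries lay above all 18 other fetal livers, as they did for 0.733% of all genes. The 12 were the sensors DDX58, IFIH1, DHX58 and ZBP1, the transcription factor IRF9, USP18, which removes ISG15 from proteins, the ligase HERC6, and RSAD2, CMPK2, IFI6, IFI44L and XAF1. ISG15, a ubiquitin-like protein that is attached to other proteins, had 89.3 and 55.8 CPM in CF d100 livers, against 151 and 86.0 CPM in WT d100 livers. The CF replicate 1 value lay above the lower WT value, so the groups overlapped. RSAD2, the antiviral enzyme viperin, had 3.73 and 1.47 CPM in CF d100 livers, against 7.37 and 5.85 CPM in WT d100 livers, without overlap (log2 -1.34 ± 0.67 SE, adjusted p = 1). OAS2, which makes the second messenger that activates RNase L, had 3.18 and 1.96 CPM in CF d100 livers and 8.33 and 6.67 CPM in WT d100 livers (log2 -1.54 ± 0.38 SE, adjusted p = 0.408).

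Over the 34 members at d100, 32 had a negative CF minus WT difference, against 51.3% of all genes. The members' median was -0.71 log2, against -0.01 for all genes. In 29 of the 34, both CF livers lay under both WT livers, against 21.4% of all genes. At d120, 27 of 34 were positive, against 52.3% of all genes, and none passed. The members' median was 0.23 log2, against 0.03 for all genes. Cytosolic ribosomal protein genes summed to 27898 and 35946 CPM in CF d120 livers, against 63727 and 57141 CPM in WT d120 livers. Erythroid markers summed to 32926 and 43275 CPM in CF d120 livers, against 108214 and 74625 CPM in WT d120 livers. The part of either in the d120 differences was not tested. The CF d100 livers were themselves uneven, since replicate 1 was higher than replicate 2 in 32 of 34 members. Macrophage markers summed to 840.0 and 985 CPM in CF d100 livers and 679 and 880.0 CPM in WT d100 livers. Lymphocyte markers summed to 17.4 and 18.2 CPM in CF and 15.5 and 20.3 CPM in WT. Plasmacytoid dendritic cell markers summed to 30.6 and 36.3 CPM in CF and 35.9 and 46.2 CPM in WT, and TLR9 of that list was at 0 counts in both WT libraries and in CF replicate 1. No gene of these 3 lists was called at d100, and their part in the d100 levels was not tested.

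Gestation age was followed in each genotype. Between d50 and d120 along a straight line, 9 of 34 members rose and none fell in CF livers, and 5 rose and none fell in WT livers. IFI6, IFIH1, IRF9, PARP14 and RSAD2 were called in both. Over all genes, 8.58% rose and 7.96% fell in CF, and 3.19% rose and 1.61% fell in WT. The slopes of no member differed between CF and WT at an adjusted p under 0.05, by edgeR's quasi-likelihood test. In that test 0.00606% of all genes were called. An unadjusted p under 0.05 was reached by 1 member and by 2174 of all 16508 genes, and DESeq2 called 0 members. The members' median change over the span was 0.90 log2 in CF and 0.78 log2 in WT, against 0.06 and -0.06 for all genes.

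RSAD2 had the largest rises among the members called in both genotypes. Its counts in early livers were low, at 7 in CF d80 replicate 1 and 9 in WT d65 replicate 1. In CF livers it had 0.489 and 1.08 CPM at d50, 0.906 and 0.479 CPM at d65, 0.157 and 0.555 CPM at d80, 3.73 and 1.47 CPM at d100 and 2.28 and 3.23 CPM at d120. In WT livers it had 0.987 and 1.25 CPM at d50, 0.163 and 0.779 CPM at d65, 1.03 and 0.565 CPM at d80, 7.37 and 5.85 CPM at d100 and 3.41 and 1.67 CPM at d120. The change over the span was log2 2.34 ± 0.62 SE, adjusted p = 0.0167 in CF and log2 2.53 ± 0.62 SE, adjusted p = 0.0223 in WT, and the WT values peaked at d100 rather than at d120. IFI6, a mitochondrial and endoplasmic reticulum protein that protects cells from death, had 26.7 and 25.02 CPM at d50, 37.4 and 40.4 CPM at d65, 52.7 and 25.4 CPM at d80, 111 and 82.2 CPM at d100 and 41.7 and 61.7 CPM at d120 in CF livers. In WT livers IFI6 had 22.7 and 29.2 CPM at d50, 14.3 and 46.9 CPM at d65, 45.1 and 26.1 CPM at d80, 142 and 119 CPM at d100 and 81.3 and 71.9 CPM at d120. Its mean was highest at d100 in both genotypes (log2 1.30 ± 0.40 SE, adjusted p = 0.0362 in CF, and log2 2.09 ± 0.41 SE, adjusted p = 0.00501 in WT).

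Among the transcription factors, IRF1 and IRF9 rose. IRF1, which drives interferon-gamma responses, had 1.35 and 2.39 CPM at d50, 1.95 and 0.250 CPM at d65, 1.75 and 2.36 CPM at d80, 3.99 and 2.83 CPM at d100 and 6.60 and 6.12 CPM at d120 in CF livers. In WT livers IRF1 had 2.46 and 1.497 CPM at d50, 2.82 and 2.31 CPM at d65, 2.59 and 1.86 CPM at d80, 4.71 and 3.95 CPM at d100 and 4.31 and 3.25 CPM at d120. The CF values were highest at d120, and the rise was called in CF (log2 2.13 ± 0.52 SE, adjusted p = 0.0113) and not in WT (log2 1.05 ± 0.51 SE, adjusted p = 0.269). IRF9, which binds DNA in a complex with STAT2, had 28.6 and 33.1 CPM at d50, 23.8 and 38.02 CPM at d65, 38.4 and 36.7 CPM at d80, 58.6 and 47.1 CPM at d100 and 36.9 and 53.3 CPM at d120 in CF livers. In WT livers it had 30.1 and 29.6 CPM at d50, 23.6 and 37.0 CPM at d65, 42.6 and 33.1 CPM at d80, 82.6 and 59.4 CPM at d100 and 51.3 and 44.1 CPM at d120. The changes were log2 0.74 ± 0.24 SE, adjusted p = 0.0444 in CF and log2 1.02 ± 0.24 SE, adjusted p = 0.0192 in WT, with the highest mean at d100 in both. STAT2, its partner, did not pass, at log2 -0.07 ± 0.18 SE in CF and log2 0.26 ± 0.18 SE in WT.

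Of the sensors, IFIH1 had 5.42 and 11.1 CPM at d50, 6.48 and 7.60 CPM at d65, 11.4 and 10.2 CPM at d80, 15.3 and 11.4 CPM at d100 and 13.9 and 14.8 CPM at d120 in CF livers. In WT livers IFIH1 had 10.2 and 6.87 CPM at d50, 8.38 and 7.30 CPM at d65, 9.97 and 5.87 CPM at d80, 19.8 and 17.6 CPM at d100 and 14.0 and 12.1 CPM at d120. The change was log2 1.01 ± 0.27 SE, adjusted p = 0.0195 in CF and log2 1.01 ± 0.27 SE, adjusted p = 0.0404 in WT. ZBP1 had 0.714 and 1.39 CPM at d50, 0.348 and 0.229 CPM at d65, 1.03 and 0.396 CPM at d80, 1.51 and 1.38 CPM at d100 and 2.12 and 1.79 CPM at d120 in CF livers, and the WT livers had 1.37 and 1.07 CPM at d50, 0.942 and 1.65 CPM at d65, 1.25 and 0.525 CPM at d80, 3.73 and 2.12 CPM at d100 and 0.810 and 0.932 CPM at d120. ZBP1 rose in CF (log2 1.73 ± 0.51 SE, adjusted p = 0.028) and did not pass in WT (log2 0.08 ± 0.50 SE, adjusted p = 0.984). The difference between its slopes was log2 1.65 ± 0.71 SE, adjusted p = 0.353. DHX58 rose in CF as well (log2 0.96 ± 0.29 SE, adjusted p = 0.0344).

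PARP14, an ADP-ribosyl transferase, had 8.97 and 11.7 CPM at d50, 5.78 and 8.03 CPM at d65, 8.72 and 7.35 CPM at d80, 13.5 and 12.04 CPM at d100 and 17.8 and 15.6 CPM at d120 in CF livers. In WT livers PARP14 had 11.01 and 8.76 CPM at d50, 9.62 and 7.79 CPM at d65, 9.69 and 12.51 CPM at d80, 18.3 and 15.5 CPM at d100 and 14.3 and 13.1 CPM at d120. Its means at d100 and d120 were above those at d50, d65 and d80 in both genotypes, with a change of log2 0.97 ± 0.20 SE, adjusted p = 0.00409 in CF and log2 0.76 ± 0.20 SE, adjusted p = 0.0337 in WT. RNF213, a large ubiquitin ligase, had 10.99 and 20.7 CPM at d50, 9.69 and 11.9 CPM at d65, 17.3 and 11.2 CPM at d80, 23.2 and 17.1 CPM at d100 and 31.1 and 27.9 CPM at d120 in CF livers. In WT livers RNF213 had 19.7 and 12.7 CPM at d50, 11.2 and 12.1 CPM at d65, 14.8 and 13.3 CPM at d80, 29.2 and 26.4 CPM at d100 and 23.0 and 17.9 CPM at d120. It rose in CF (log2 1.13 ± 0.26 SE, adjusted p = 0.0076) and did not pass in WT (log2 0.79 ± 0.26 SE, adjusted p = 0.0875). Macrophage markers moved the same way, with 8 of 12 rising in CF and 9 of 12 in WT, and in CF 30 of 82 cytosolic ribosomal protein genes fell. Of other cell types' markers, 2 of 6 plasmacytoid dendritic, 4 of 11 lymphocyte, 3 of 7 neutrophil and 4 of 8 cholangiocyte genes rose in CF, and 0 of 6, 2 of 11, 0 of 7 and 0 of 8 of the same lists rose in WT. The part of any of these in the members' slopes was not tested. With 1 unit per donor-number stem, 4 members were called in CF and 0 in WT. Without both SF177-1 libraries 13 were called in CF and 6 in WT, and the WT calls of IFIH1 and PARP14 were lost. Leaving out 1 library left between 0 and 12 members called in CF, with 0 without CF d50 replicate 1, 2 and 3 without CF d120 replicate 1 and replicate 2, and 5 without CF d100 replicate 1. In WT it left between 1 and 6, with 1 without WT d120 replicate 1 or either WT d50 library, and 2 without WT d120 replicate 2 or WT d100 replicate 1.

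Between d120 and the end of gestation, 1 member fell and none rose in CF livers, and 19 of 34 rose and none fell in WT livers. The CF median change was 0.32 log2, against 0.04 for all genes, of which 6.34% rose and 8.39% fell. The WT median change was 1.57 log2, against 0.00 for all genes, of which 16.9% rose and 18.5% fell. By role, 3 of 4 sensors, 6 of 13 antiviral effectors, 5 of 6 genes of the ISG15 system and ubiquitin ligases, both PARP genes, 1 of 4 transcription factors and 2 of 5 other induced genes rose in WT. The difference between these changes, a comparison chosen after the data had been seen, was called for 9 members, all with the smaller change in CF. Over all genes 10.3% were called in that direction and 10.8% in the other. Set directly against WT term livers, CF birth livers were lower in 13 of 34 members and higher in none, with 16.8% of all genes lower and 17.0% higher.

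Of the 4 sensors, DDX58 and IFIH1 were lower in CF birth livers and DHX58 and ZBP1 did not pass. DDX58 had 10.1 and 8.57 CPM in CF birth livers, against 31.4 and 54.9 CPM in WT term livers (log2 -2.20 ± 0.43 SE, adjusted p = 0.000818). It had changed by log2 0.01 ± 0.42 SE from d120 in CF and by log2 1.896 ± 0.43 SE, adjusted p = 0.00216 in WT, and the difference was log2 -1.88 ± 0.59 SE, adjusted p = 0.031. IFIH1 had 23.3 and 18.0 CPM in CF birth livers and 45.1 and 44.2 CPM in WT term livers, against 13.9 and 14.8 CPM in CF d120 livers and 14.0 and 12.1 CPM in WT d120 livers. At d120 the genotypes overlapped, and at the end of gestation both CF values lay under both WT values (log2 -1.12 ± 0.31 SE, adjusted p = 0.00927). DHX58 had 17.0 and 9.21 CPM in CF birth livers, against 19.8 and 19.0 CPM in WT term livers, without overlap (log2 -0.56 ± 0.33 SE, adjusted p = 0.2). ZBP1 rose in WT at term (log2 2.61 ± 0.59 SE, adjusted p = 0.00207). Its CF birth and WT term values, 2.64 and 4.13 CPM and 6.05 and 4.61 CPM, did not overlap. The difference did not pass (log2 -0.66 ± 0.55 SE, adjusted p = 0.377). How many of all genes had no overlap between CF birth and WT term livers was not counted.

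**Figure D4:**
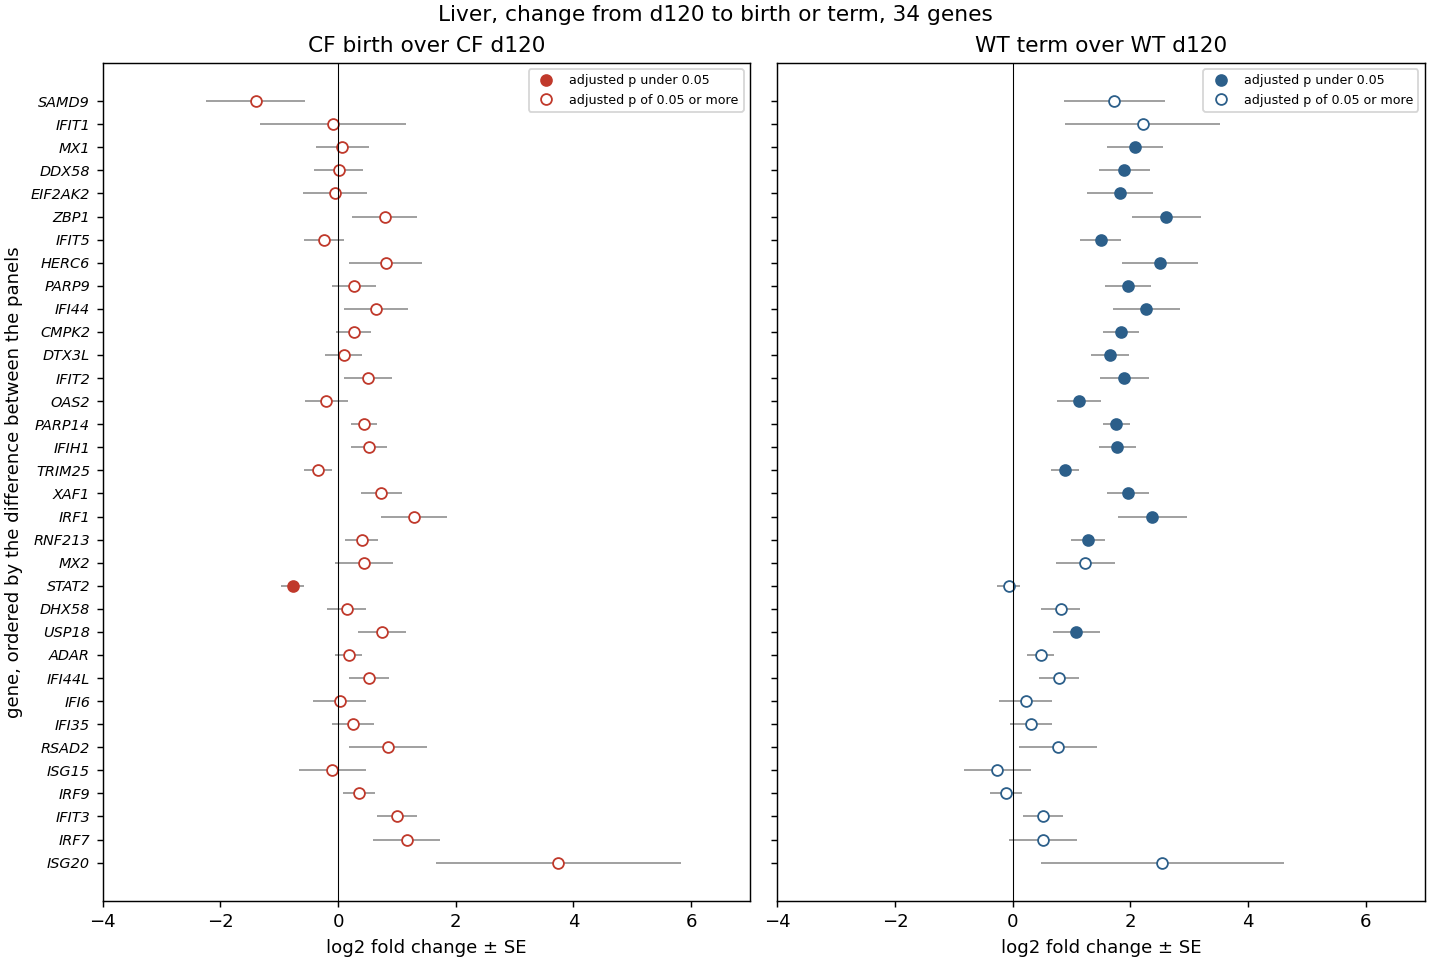
Log2 fold change ± SE for each of the 34 genes in liver from d120 to birth in CF (left) and from d120 to term in WT (right), ordered by the difference between the panels, with filled points where the adjusted p is under 0.05. In WT 19 genes are filled, all to the right of 0, and in CF only STAT2 is, to the left of 0.

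Among antiviral effectors, CMPK2, a mitochondrial nucleotide kinase, had 16.3 and 14.9 CPM in CF birth livers, against 42.3 and 42.0 CPM in WT term livers. The CF d120 livers had 10.7 and 15.3 CPM and the WT d120 livers 14.9 and 8.76 CPM, so only the WT term pair stood out (log2 -1.43 ± 0.30 SE, adjusted p = 0.00139 at the end of gestation, and log2 -1.57 ± 0.42 SE, adjusted p = 0.0134 for the difference of changes). MX1 had 45.7 and 16.7 CPM in CF birth livers, against 84.8 and 88.0 CPM in WT term livers (log2 -1.47 ± 0.46 SE, adjusted p = 0.0196), a call lost without either WT term library or CF birth replicate 2. IFIT5, which binds RNA with a free phosphate end, had 47.8 and 46.5 CPM in CF birth livers, against 108 and 101 CPM in WT term livers (log2 -1.14 ± 0.34 SE, adjusted p = 0.0147). Its d120 values were 58.5 and 53.0 CPM in CF livers and 34.9 and 39.1 CPM in WT livers, so the order of the genotypes turned between d120 and the end of gestation (log2 -1.73 ± 0.48 SE, adjusted p = 0.0155).

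EIF2AK2, the kinase PKR that halts translation on double-stranded RNA, had 4.34 and 3.78 CPM in CF birth livers, against 18.8 and 15.0 CPM in WT term livers (log2 -2.06 ± 0.56 SE, adjusted p = 0.00897). OAS2 had 6.82 and 5.07 CPM in CF birth livers, against 11.4 and 12.1 CPM in WT term livers (log2 -0.98 ± 0.37 SE, adjusted p = 0.0481), a call that remained in 1 of 8 alternatives. XAF1, a partner of cell death regulators, had 8.73 and 10.7 CPM in CF birth livers, against 18.2 and 23.3 CPM in WT term livers (log2 -1.09 ± 0.35 SE, adjusted p = 0.0207). For these genes the CF birth and WT term groups did not overlap, a separation that was not counted over all genes. XAF1 had 5.53 and 5.17 CPM in WT d120 livers.

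The 2 PARP genes and the ubiquitin ligases DTX3L and TRIM25 were all lower in CF birth livers. PARP14 had 22.3 and 23.1 CPM in CF birth livers, against 48.1 and 44.5 CPM in WT term livers (log2 -1.03 ± 0.22 SE, adjusted p = 0.00178). It had the smallest adjusted p of the members in the WT change from d120 (log2 1.76 ± 0.23 SE, adjusted p = 1.25e-05) and in the difference of changes (log2 -1.32 ± 0.31 SE, adjusted p = 0.00673), and that last call remained in all 12 alternatives. PARP9 had 10.2 and 12.3 CPM in CF birth livers, against 27.6 and 24.01 CPM in WT term livers (log2 -1.19 ± 0.38 SE, adjusted p = 0.0227), a call lost in each fit without 1 of these 4 libraries. DTX3L, the ubiquitin ligase that binds PARP9, had 13.3 and 11.8 CPM in CF birth livers, against 38.5 and 30.9 CPM in WT term livers (log2 -1.47 ± 0.32 SE, adjusted p = 0.00177). At d120, PARP9 had 11.3 and 7.41 CPM in CF and 8.39 and 4.94 CPM in WT livers, and DTX3L had 13.2 and 10.3 CPM in CF and 11.9 and 10.2 CPM in WT livers. PARP9 and DTX3L are neighbours in mammalian genomes and the strand setting of the counting is not given, so reads of one may have been counted to the other. TRIM25, the ligase that modifies RIG-I, had 59.0 and 39.6 CPM in CF birth livers, against 93.8 and 101 CPM in WT term livers (log2 -0.98 ± 0.24 SE, adjusted p = 0.00453). Its d120 values were 66.8 and 58.3 CPM in CF livers and 58.1 and 46.9 CPM in WT livers. Both CF values lay above both WT values, as in 5115 of all 16508 genes at d120.

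STAT2 took another course. It had 45.8 and 35.7 CPM in CF birth livers, against 78.8 and 65.5 CPM in WT term livers (log2 -0.82 ± 0.20 SE, adjusted p = 0.00387). The WT d120 livers had 71.7 and 79.5 CPM and the CF d120 livers had 63.3 and 75.9 CPM. STAT2 was the only member called in CF from d120 to birth (log2 -0.77 ± 0.20 SE, adjusted p = 0.0128). ISG15 did not pass in WT at term (log2 -0.26 ± 0.58 SE, adjusted p = 0.759), with 25.7 and 31.3 CPM at term and 42.9 and 25.5 CPM at d120 in WT, nor did IFI6 (log2 0.22 ± 0.45 SE, adjusted p = 0.742) or IFI35 (log2 0.31 ± 0.35 SE, adjusted p = 0.529). HERC6, which attaches ISG15 in mice, rose in WT at term (log2 2.51 ± 0.65 SE, adjusted p = 0.00571), as did IRF1 (log2 2.37 ± 0.59 SE, adjusted p = 0.00425) and IFI44 (log2 2.27 ± 0.57 SE, adjusted p = 0.00484).

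Other cell types moved with these results. Macrophage markers summed to 907 and 957 CPM in CF birth livers, against 1863 and 2019 CPM in WT term livers, with 7 of 12 lower in CF, and 7 of 12 rose in WT from d120 to term. Hepatocyte markers summed to 32572 and 130120.0 CPM in CF birth livers, against 174643 and 179940.0 CPM in WT term livers. Cholangiocyte markers summed to 364 and 507 CPM in CF birth livers, against 129 and 185 CPM in WT term livers. Lymphocyte markers summed to 13.2 and 78.9 CPM in CF birth livers, against 14.8 and 18.8 CPM in WT term livers, so the CF birth pair was uneven in hepatocyte and lymphocyte markers while its members' mean levels were both 0.65. Erythroid markers summed to 252 and 1559 CPM in CF birth livers, against 111 and 111 CPM in WT term livers, with 7 of 7 higher in CF. At d120 they had summed to 32926 and 43275 CPM in CF livers and 74625 and 108214 CPM in WT livers, and 7 of 7 fell from d120 in each genotype. Neutrophil markers summed to 7.85 and 37.1 CPM in CF birth livers, against 6.56 and 7.53 CPM in WT term livers. By list, 3 of 7 neutrophil, 6 of 8 cholangiocyte, 4 of 11 lymphocyte and 2 of 6 plasmacytoid dendritic genes were higher in CF birth than in WT term livers. The part of cell content in the members' difference was not tested. Between 8 and 12 members were called at the end of gestation when 1 library was left out, with 8 without CF birth replicate 2. In the difference of changes between 2 and 9 were called, with 2 without WT d120 replicate 2 or CF d120 replicate 1 5 without either WT term library, and 2 with 1 unit per donor-number stem. The STAT2 call from d120 to birth in CF was lost without CF birth replicate 2 or CF d120 replicate 2, which left 0 calls.

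In gallbladder the share of members called was close to that of all genes. Over the mean of d100 and d120, 9 of 32 members fell in CF gallbladders and 5 rose, in a tissue where 20.1% of all genes fell and 23.6% rose. The members' median was -0.08 log2, against 0.16 for all genes. Those that fell were the sensors DDX58 and DHX58, the transcription factors IRF7 and IRF9, and ISG15, MX1, IFI6, IFI35 and XAF1. Those that rose were IRF1, IFI44, IFIT2, IFIT5 and RNF213. By role, 2 of 4 sensors, 2 of 4 transcription factors and 3 of 5 other induced genes fell, and neither PARP gene was called. Cytosolic ribosomal protein genes summed to between 43157 and 60956 CPM in the CF d100 and d120 gallbladders and between 114131 and 324695 CPM in the WT ones, with 56 of 77 lower in CF, and their part in the members' differences was not tested.

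ISG15 fell furthest. It had 9.63 and 5.40 CPM in CF d100 gallbladders, against 257 and 205 CPM in WT d100 gallbladders. At d120 it had 4.70 and 16.2 CPM in CF gallbladders, against 110.0 and 61.3 CPM in WT gallbladders. Every CF value lay under every WT value, and the mean difference was log2 -3.99 ± 0.58 SE, adjusted p = 0.00363. Both CF values lay under both WT values in 7895 of all 18717 genes at d100 and in 5491 at d120. How many of all genes were separated over both stages together was not counted, for ISG15 or for the members below. IFI6 had 68.6 and 43.1 CPM in CF d100 and 33.7 and 76.5 CPM in CF d120 gallbladders, against 327 and 262 CPM in WT d100 and 573 and 325 CPM in WT d120 gallbladders (log2 -2.71 ± 0.65 SE, adjusted p = 0.0132). IFI35, which pairs with the interferon-induced protein NMI, had 27.7 and 18.5 CPM in CF d100 and 19.2 and 22.2 CPM in CF d120 gallbladders, against 84.1 and 82.0 CPM in WT d100 and 139 and 129 CPM in WT d120 gallbladders. The groups did not overlap, and IFI35 had the smallest adjusted p of the members (log2 -2.27 ± 0.31 SE, adjusted p = 0.00322). XAF1 had 6.01 and 5.58 CPM in CF d100 and 6.66 and 8.61 CPM in CF d120 gallbladders, against 18.7 and 18.6 CPM in WT d100 and 29.6 and 22.3 CPM in WT d120 gallbladders (log2 -1.72 ± 0.39 SE, adjusted p = 0.0111).

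Of the sensors, DDX58 had 10.7 and 10.2 CPM in CF d100 and 15.8 and 19.6 CPM in CF d120 gallbladders, against 75.2 and 79.0 CPM in WT d100 and 21.1 and 25.1 CPM in WT d120 gallbladders. Every CF value lay under every WT value, and the mean difference (log2 -1.63 ± 0.27 SE, adjusted p = 0.00525) was called in all 14 alternatives. DHX58 had 13.7 and 12.9 CPM in CF d100 and 17.2 and 16.8 CPM in CF d120 gallbladders, against 31.5 and 27.9 CPM in WT d100 and 27.2 and 35.3 CPM in WT d120 gallbladders (log2 -1.02 ± 0.18 SE, adjusted p = 0.00605). IFIH1 did not pass (log2 -0.10 ± 0.18 SE, adjusted p = 0.661). MX1 had 33.5 and 33.8 CPM in CF d100 and 46.0 and 58.3 CPM in CF d120 gallbladders, against 132 and 130.2 CPM in WT d100 and 59.7 and 76.0 CPM in WT d120 gallbladders (log2 -1.17 ± 0.18 SE, adjusted p = 0.00447).

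The transcription factors went in both directions. IRF7, which induces interferon genes, had 9.16 and 8.47 CPM in CF d100 and 7.08 and 5.74 CPM in CF d120 gallbladders, against 13.01 and 12.47 CPM in WT d100 and 22.9 and 30.4 CPM in WT d120 gallbladders (log2 -1.29 ± 0.25 SE, adjusted p = 0.00714). IRF9 had 48.8 and 44.4 CPM in CF d100 and 53.7 and 56.2 CPM in CF d120 gallbladders, against 111 and 109 CPM in WT d100 and 86.1 and 101 CPM in WT d120 gallbladders (log2 -1.01 ± 0.18 SE, adjusted p = 0.00572). Both were lower in every CF library. IRF1 was the opposite, with 17.1 and 17.1 CPM in CF d100 and 17.9 and 19.0 CPM in CF d120 gallbladders, against 8.87 and 9.26 CPM in WT d100 and 1.96 and 4.85 CPM in WT d120 gallbladders (log2 1.67 ± 0.31 SE, adjusted p = 0.00648). Its call remained in all 14 alternatives.

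The other members that rose had smaller or less even gaps. IFIT5 had 73.8 and 78.8 CPM in CF d100 and 79.4 and 117 CPM in CF d120 gallbladders, against 58.1 and 69.4 CPM in WT d100 and 10.6 and 28.8 CPM in WT d120 gallbladders (log2 1.29 ± 0.33 SE, adjusted p = 0.0161). IFIT2 had 8.45 and 8.53 CPM in CF d100 and 10.6 and 15.2 CPM in CF d120 gallbladders, against 8.30 and 8.12 CPM in WT d100 and 2.50 and 4.81 CPM in WT d120 gallbladders (log2 0.93 ± 0.29 SE, adjusted p = 0.0314). Neither overlapped at either stage, and both gaps were wider at d120, where WT replicate 1 held the lowest value. Both CF values lay above both WT values in 8080 of all 18717 genes at d100 and in 7577 at d120. RNF213 had 66.0 and 105 CPM in CF d100 and 107 and 99.9 CPM in CF d120 gallbladders, against 46.5 and 47.2 CPM in WT d100 and 44.3 and 51.3 CPM in WT d120 gallbladders (log2 0.99 ± 0.31 SE, adjusted p = 0.031). IFI44 had 30.6 and 30.3 CPM in CF d100 and 43.8 and 17.3 CPM in CF d120 gallbladders, against 10.9 and 12.8 CPM in WT d100 and 11.3 and 24.2 CPM in WT d120 gallbladders, the only called member whose groups overlapped (log2 1.07 ± 0.36 SE, adjusted p = 0.041). The calls of IFI44, IFIT2 and RNF213 each remained in 5 of 14 alternatives. With the hepatocyte marker level as a covariate, 7 of the 14 calls were lost, those of DHX58, IFI6, IRF7, XAF1, IFI44, IFIT2 and RNF213. That level, as mean log2, was 7.23 and 7.04 in CF d100 and 12.98 and 13.01 in WT d100 gallbladders. At d120 it was 3.47 and 11.76 in CF and 11.61 and 11.22 in WT. Because the level largely went with genotype, a lost call cannot tell hepatocyte content from genotype. The IFI6 call was also lost without CF d100 replicate 2 or CF d120 replicate 1, and the XAF1 call without CF d100 replicate 2. Between 8 and 18 members were called in fits without 1 library, with 8 without CF d100 replicate 2, and 20 without both libraries that stood apart.

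**Figure D5:**
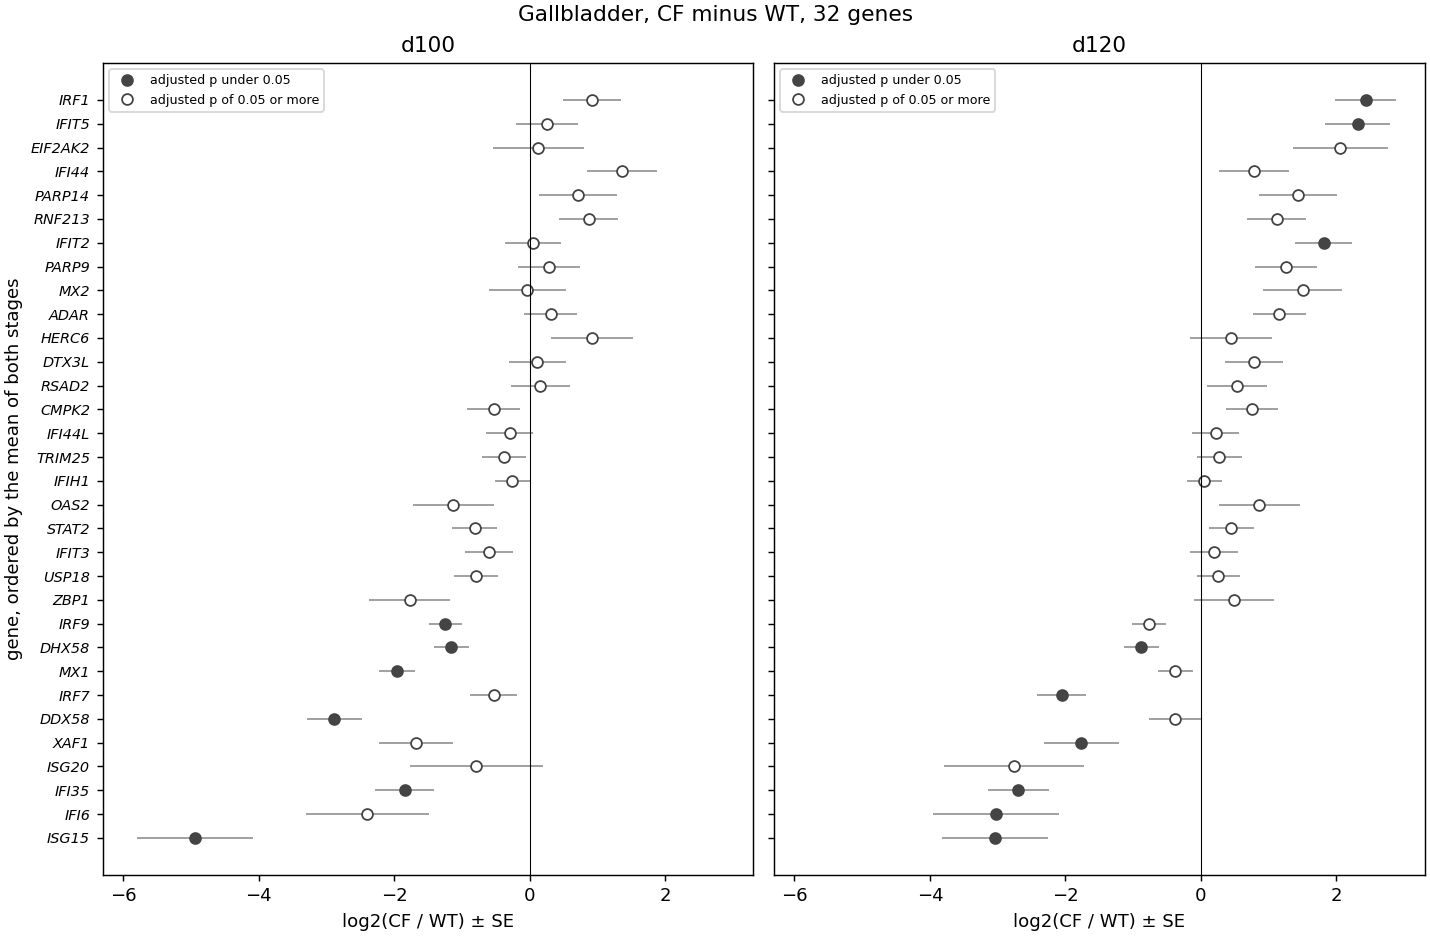
Log2 fold change ± SE of CF over WT gallbladders for each of the 32 genes at d100 (left) and d120 (right), ordered by the mean of both stages, with filled points where the adjusted p is under 0.05. ISG15 lies lowest at both stages, and DDX58 differs by -2.88 at d100 and by -0.38 at d120.

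At d100, 6 of 32 members fell in CF gallbladders and none rose, with 4.25% of all genes lower and 2.28% higher. They were DDX58 (log2 -2.88 ± 0.41 SE, adjusted p = 0.0164), DHX58, IFI35, IRF9, ISG15 (log2 -4.94 ± 0.85 SE, adjusted p = 0.0224) and MX1 (log2 -1.96 ± 0.27 SE, adjusted p = 0.0157). All 6 calls were lost in each fit without 1 of the 4 d100 libraries, with the hepatocyte marker level as a covariate, and with 1 unit per donor-number stem, where the 2 WT d100 gallbladders count as 1. At d120, 6 fell and 3 rose, with 9.45% of all genes lower and 13.2% higher. Those that fell were DHX58, IFI35 (log2 -2.69 ± 0.45 SE, adjusted p = 0.0134), IFI6, IRF7 (log2 -2.05 ± 0.36 SE, adjusted p = 0.0143), ISG15 and XAF1, and those that rose were IFIT2, IFIT5 and IRF1 (log2 2.43 ± 0.45 SE, adjusted p = 0.0163). Hepatocyte markers summed to 251 and 65957 CPM in CF d120 gallbladders, against 82898 and 142935 CPM in WT d120 gallbladders. Macrophage markers summed to 324 and 396 CPM in CF d100 gallbladders, against 1072 and 1113 CPM in WT d100 gallbladders, and 0 of 11 were called at either stage. Erythroid markers summed to 84.3 and 84.5 CPM in CF d100 gallbladders, against 3416 and 3565 CPM in WT d100 gallbladders, with 4 of 5 lower in CF. Neutrophil markers summed to 7.39 and 7.61 CPM in CF d100 gallbladders, against 152 and 174 CPM in WT d100 gallbladders, with 2 of 7 lower in CF at d100 and 4 of 7 in the mean of both stages. The part of macrophage, lymphocyte, erythroid and neutrophil content in the members' differences was not tested. With the hepatocyte level as a covariate, 7 members were called in the mean of both stages and 5 at d120. The d120 count was 4 with 1 unit per donor-number stem, 0 without either CF d120 library, 1 without WT d120 replicate 1, and 15 without both libraries that stood apart.

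In WT gallbladders, as in WT livers, both d100 values of DDX58 lay above both d120 values, in libraries whose donor numbers share the start SF152. How many of all genes did so was not counted. The difference between WT d100 and WT d120, chosen after the data had been seen, was log2 1.74 ± 0.39 SE, adjusted p = 0.0934 for DDX58, so it did not pass. No member passed by edgeR's test, with 0.0267% of all genes higher and 0.0107% lower. An unadjusted p under 0.05 was reached by 9 members and by 3568 of all 18717 genes, and DESeq2 called 7 members. In 23 of 32 members the difference was positive, against 55.8% of all genes, with a median of 0.69 log2 against 0.15 for all genes.

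At birth, WT gallbladders had more of 7 members than the fetal WT mean and less of 3, with 16.0% of all genes higher and 11.1% lower. IRF1 had 44.6 and 31.8 CPM at birth, against 1.96 and 4.85 CPM at d120 and 8.87 and 9.26 CPM at d100 (log2 2.78 ± 0.35 SE, adjusted p = 0.00633). IFI44 had 98.3 and 80.1 CPM at birth, against 11.3 and 24.2 CPM at d120 and 10.9 and 12.8 CPM at d100 (log2 2.62 ± 0.42 SE, adjusted p = 0.0103). Both were higher in each birth library than in any fetal WT library, a separation that was not counted over all genes. IFIT2 had 21.8 and 17.9 CPM at birth, against 2.50 and 4.81 CPM at d120 and 8.30 and 8.12 CPM at d100 (log2 1.85 ± 0.34 SE, adjusted p = 0.0137). TRIM25 had 154 and 207 CPM, against 61.2 and 68.0 CPM at d120 and 101 and 89.6 CPM at d100 (log2 1.20 ± 0.27 SE, adjusted p = 0.0206). PARP14 had 106 and 76.4 CPM, against 11.2 and 28.1 CPM at d120 and 29.97 and 34.2 CPM at d100 (log2 1.86 ± 0.48 SE, adjusted p = 0.0267). These 3 genes were also higher in each birth library than in any fetal WT library, again without a count over all genes. ISG15 fell to 10.52 and 7.06 CPM at birth, the low range that the CF fetal gallbladders also had (log2 -3.999 ± 0.78 SE, adjusted p = 0.0152), and IFI6 and IRF9 fell with it. DTX3L and IFIH1 rose. Ribosomal protein genes summed to 31798 and 43298 CPM at birth, under every WT fetal gallbladder. Erythroid markers summed to 1.38 and 3.04 CPM at birth, against 1109.8 and 1395 CPM at d120 and 3416 and 3565 CPM at d100, and 5 of 5 fell. Neutrophil markers summed to 8.75 and 26.6 CPM at birth, against 117 and 126 CPM at d120 and 152 and 174 CPM at d100, and 4 of 7 fell. The part of these genes in the members' changes was not tested. Hepatocyte markers summed to 15600 and 49056 CPM at birth, against 82898 and 142935 CPM at d120 and 225742 and 226191 CPM at d100. Of these markers 0 of 9 were called. The birth calls with the hepatocyte level as a covariate are not given here. Leaving out 1 library left between 0 and 13 members called, with 0 without WT birth replicate 1, 1 without WT birth replicate 2 or either WT d100 library, and 4 without WT d120 replicate 1. The count also moved without both libraries that stood apart and with 1 unit per donor-number stem. Calls over all genes in those fits are not given here.

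No member changed with age past the threshold in CF gallbladders. Between CF d80 and the mean of CF d100 and d120, 0 of 32 members and 0.00534% of all genes were called by edgeR's test. An unadjusted p under 0.05 was reached by 8 members and by 3137 of all 18717 genes, and DESeq2 called 0 members. RNF213, with the smallest p, had 66.0 and 105 CPM in CF d100 and 107 and 99.9 CPM in CF d120 gallbladders, against 24.3 and 60.1 CPM in CF d80 gallbladders (log2 1.16 ± 0.40 SE, adjusted p = 0.213). The CF d80 pair differed widely, with a rank correlation of 0.833 over all genes. The count of members called moved when CF d80 replicate 2 was left out. Calls over all genes in that fit are not given here, so its count is not a result about the members.

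Other genes of the pathway were looked up beside the members. Of 88 other genes of interferon reception, signalling, sensing and response tested in liver, 2 were higher and 1 lower in CF over the fetal mean, where 0.854% of all genes were higher and 1.69% lower. APOL3, a lipid-binding protein induced by interferon, had 76.7 and 100.5 CPM in CF d100 livers, against 18.3 and 15.3 CPM in WT d100 livers (fetal mean log2 1.63 ± 0.17 SE, adjusted p = 5.01e-05). GBP1, a guanylate-binding protein, was higher (log2 1.30 ± 0.33 SE, adjusted p = 0.0457), and PSMB8, a subunit of the immunoproteasome, was lower (log2 -0.57 ± 0.14 SE, adjusted p = 0.0399). None of the 88 was called in the WT d100 comparison in which DDX58 was. From d50 to d120, 36 of the 88 rose and 4 fell in CF, where 8.58% of all genes rose and 7.96% fell. In WT 13 rose and 2 fell, where 3.19% of all genes rose and 1.61% fell. Those that rose in both included the chemokine CXCL9 (log2 7.49 ± 0.99 SE, adjusted p = 0.000101 in CF, and log2 5.09 ± 0.83 SE, adjusted p = 0.00118 in WT).

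From d120 to birth 13 of the 88 rose and 4 fell in CF livers, where 6.34% of all genes rose and 8.39% fell. From d120 to term 36 rose and 6 fell in WT livers, where 16.9% of all genes rose and 18.5% fell. STAT3 rose in WT to 123 and 132 CPM at term, against 9.72 and 11.7 CPM at d120 (log2 3.58 ± 0.53 SE, adjusted p = 4.94e-05), and SOCS2, a brake on cytokine receptors, rose to 158 and 361 CPM, against 24.8 and 28.1 CPM (log2 3.29 ± 0.34 SE, adjusted p = 1.20e-06). SERPING1, an interferon-induced complement inhibitor, had 813 and 427 CPM in CF birth livers, against 1915 and 2698 CPM in WT term livers (log2 -1.895 ± 0.31 SE, adjusted p = 0.000181). In gallbladder, 16 of 78 such genes rose and 14 fell in CF over d100 and d120, where 23.6% of all genes rose and 20.1% fell, so these shares were close to those of all genes. The receptor kinase JAK1 rose (log2 1.64 ± 0.31 SE, adjusted p = 0.00676), and UBE2L6, the enzyme that passes ISG15 to its targets, fell (log2 -1.92 ± 0.32 SE, adjusted p = 0.00533), as did OAS1 (log2 -1.37 ± 0.24 SE, adjusted p = 0.00552). Of the interferon genes themselves, IFNG had at most 16 counts in a liver, in CF birth replicate 2, and at most 1 count in a gallbladder. IFNE had at most 2 counts in a liver and 5 in a gallbladder, and IFNK had 0 in every library. None of them passed the filter on low counts.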

How the data were processed

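Bulk RNA of sheep liver (24 libraries) and gallbladder (12 libraries) was measured, and the deposited values are estimated counts per gene, which differ in total between libraries. Per the file headers, the gallbladder values are merged salmon gene counts. The liver sheet is named for TPM, yet its columns sum to different totals, and its values were read as estimated counts. Per the submitters' processing notes the tools included STAR 2.7.9a, Salmon 1.10.1, Salmon 1.9.0, DESeq2, limma and edgeR, whose roles were not stated. The genome build is not given in the sources used here, nor are annotation and strand setting, and a rescaling of the liver values by length cannot be told from the table. Chromatin accessibility libraries were not analysed here.

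Estimated counts were rounded to whole numbers. Liver and gallbladder were fitted separately with edgeR 4.0.16 (R 4.3.3), using TMM scaling, the filterByExpr filter by group, and quasi-likelihood F tests on 1 mean per genotype and stage. All tests were two-sided, with p-values adjusted by Benjamini-Hochberg over all genes tested, with a threshold of 0.05. Age slopes are straight lines over d50 to d120, given as the change over that span. Levels are CPM on TMM-scaled library sizes. Without gene lengths, levels were not compared between genes. Totals of 29705597 to 56808639 counts (liver) and 32374693 to 54443213 counts (gallbladder) keep counting error small beside the spread between libraries for all but low genes such as ISG20. No pair of libraries agreed within sampling noise. The 2 CF d100 gallbladder columns could be matched to their group but not to a donor. The scripts were tested on simulated data.

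The members and gene lists were chosen with earlier results of these data known, and the likeness of members is Pearson's r of log2 CPM with the mean of the other members. Values in every library are given for members past the threshold between genotypes, for up to 6 members with the smallest adjusted p in each age or birth comparison, and for the member with the smallest p of each direction in the liver fetal mean and the gallbladder mean. Of other pathway genes up to 4 per direction and comparison are named. Further members were named after their values were seen. Alternatives were no low-count filter, size factors of DESeq2 1.42.0, its Wald test, 1 unit per donor-number stem, hepatocyte level as covariate (gallbladder), and leaving out libraries.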

Additional observations from a re-analysis of the deposited data

Results flagged for a closer look

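In liver, the change from d120 to birth in CF differed from the change from d120 to term in WT for 9 of the 34 genes. The test was of the difference itself in edgeR, at an adjusted p under 0.05. Over all genes 10.3% were called with a negative difference, as were these 9, and 10.8% with a positive one. The difference, CF change minus WT change on the log2 scale, was -1.88 for the RNA sensor DDX58 and -1.26 for the RNA sensor IFIH1. Among antiviral effectors it was -2.004 for MX1, -1.73 for IFIT5 and -1.57 for CMPK2. It was -1.68 for PARP9 and -1.32 for PARP14, and -1.55 and -1.23 for the ubiquitin ligases DTX3L and TRIM25. This comparison was chosen after the data had been seen, and the WT term pair has library names from another number range. Groups of 2 libraries allow no test for a single library far from the others.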

How the results depend on the processing

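With 2 libraries a group, the number of members called moved with the fit. The share of all genes called in each alternative fit is not given here. Counts from those fits, here and in the sections above, therefore describe how calls moved and are not results about the members alone. The DESeq2 Wald test called 2 in the liver fetal mean, 2 at d65, 2 at d100, 16 and 10 in the CF and WT slopes, 2 from d120 to birth in CF, 3 in the WT d100 step, 10 and 16 in gallbladder at d100 and d120, and 7 in the gallbladder WT d100 step. With 1 unit per donor-number stem there were 0 at liver d100, 4 in the CF slope, 0 in the WT slope, 2 in the birth difference, 0 in the WT d100 step, 0 and 4 in gallbladder at d100 and d120, and 1 at WT gallbladder birth. Without both SF177-1 libraries 0 were called at liver d100. With the hepatocyte covariate 7 were called in the gallbladder mean, 0 at d100 and 5 at d120. Without both gallbladder libraries that stood apart, 15 were called at d120 and 21 at WT birth. Leaving out each library gave 1 to 2 in the fetal mean, 0 to 1 at d65, 0 to 0 at d100, 8 to 12 at the end of gestation, 0 to 12 and 1 to 6 in the CF and WT slopes, 0 to 2 from d120 to birth in CF, 13 to 18 from d120 to term in WT, 2 to 9 in the birth difference and 0 to 1 in the WT d100 step. In gallbladder it gave 8 to 18 in the mean, 0 to 0 at d100, 0 to 9 at d120, 0 to 13 at WT birth, 0 to 11 with CF age and 0 to 3 in the WT d100 step. Fits without 1 library assume that the lone partner varies like the other groups. The cause of these shifts was not tested. No paired analysis was possible because replicate numbers were given in accession order and pair no samples. Depth limits IFIT1 and ISG20, which had 0 counts in some libraries. Low counts also limit the liver slopes of RSAD2, with 7 counts in CF d80 replicate 1, and of IRF1 and ZBP1, with 12 and 11 counts in CF d65 replicate 2.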
